A study of Homo sapiens with 24 samples.

Results

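The galectin genes described here are LGALS1, LGALS3, LGALS8, LGALS9 and LGALS12, which encode galectins 1, 3, 8, 9 and 12, together with LGALS3BP, which encodes a secreted glycoprotein that galectin-3 binds. They are 6 of the 30373 rows of a table of RNA levels and were chosen by symbol. The group was chosen with the data in view, because LGALS12 is among the genes with the largest falls in the leukaemia lines, so its falls there are given as a description with no test. The values are FPKM (fragments per kilobase of transcript, scaled to library size), and differences were tested as log2(FPKM + 1).

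Poly-A RNA was sequenced in 24 libraries from 4 established human cell lines grown in RPMI-1640 with 10% FBS. Acute myeloid leukaemia is represented by Kasumi-1, MV-4-11 and SKM-1, and non-small cell lung cancer by NCI-H1299. Each was treated for 24 h with DMSO (the solvent control), ABBV-075 at 100 nM or ABBV-744 at 200 nM, with 2 libraries in each of the 12 groups. ABBV-075 binds both bromodomains of the BET proteins, chromatin readers that promote transcription, and ABBV-744 is selective for the second bromodomain. Because the doses differ, the compounds are compared only at these doses, and both are compared with the same DMSO libraries. The labels leave unsaid whether both libraries of a group were grown apart, so each p-value reflects the spread of these samples alone, which may be technical. Between 2 libraries and 2 the smallest exact permutation p is 0.333, so tests rest on a limma model fitted across the whole table, with Benjamini-Hochberg adjustment in each comparison. A gene was tested where it reached 1 FPKM in at least 2 libraries of each line compared, and was called at an adjusted p under 0.05.

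Galectins are soluble lectins that bind β-galactosides, chiefly N-acetyllactosamine chains on cell surface glycoproteins, and they also act inside cells. Galectin-1 and galectin-9 are known for effects on leucocyte survival and immune checkpoints, galectin-3 and galectin-8 for binding to damaged endosomes and lysosomes, and galectin-12 for its place on lipid droplets in fat cells and its expression in myeloid cells. Terminal α2,6-sialic acid, added by ST6GAL1, blocks binding of several galectins to their ligands.

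Series-wide measurements set the limits of these values. The summed FPKM per library ran from 543426 to 719215, and 11243 to 12624 rows per library reached 1 FPKM. The depth of each library is unknown, because FPKM carries no count. Leucocyte and myeloid markers summed to between 147 and 6634 FPKM per library in the leukaemia lines and to between 2.78 and 6.14 in NCI-H1299, while carcinoma and epithelial markers summed to between 636 and 1431 in NCI-H1299 and to between 4.79 and 71.2 in the leukaemia lines. HEXIM1, which is known to rise under BET inhibitors, rose in all 4 lines with ABBV-075 (log2 difference 1.93 to 2.97) and with ABBV-744 (0.61 to 1.01). Libraries of 2 groups stood further apart than the rest: the SD of the log2 difference between replicates was 0.630 in DMSO-treated SKM-1 and 0.475 in ABBV-075-treated Kasumi-1, against 0.160 to 0.285 in the other 10 groups. Results in SKM-1 and in Kasumi-1 with ABBV-075 are therefore given without each of these libraries where that ends a call or moves a called value by over 1.5 times; those fits of other genes were added after the data were seen.

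The lines expressed different galectins before treatment. In DMSO, LGALS1 held 98.3% and 98.1% of the summed FPKM of the 6 genes in the NCI-H1299 libraries, 86.0% and 86.9% in MV-4-11, and 47.6% and 56.3% in SKM-1. In Kasumi-1 it held only 4.06% and 3.99%, and LGALS9 led with 56.04% and 53.3%. LGALS12 held 33.2% and 22.4% in SKM-1, 24.0% and 25.1% in Kasumi-1 and 1.81% and 1.72% in MV-4-11. All 6 genes reached 1 FPKM in both libraries of at least 6 of the 12 groups, and LGALS1 did so in all 12. LGALS8, LGALS9 and LGALS12 stayed at or below 0.473 FPKM in each NCI-H1299 library, so that line had no test for them.

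**Figure D1:**
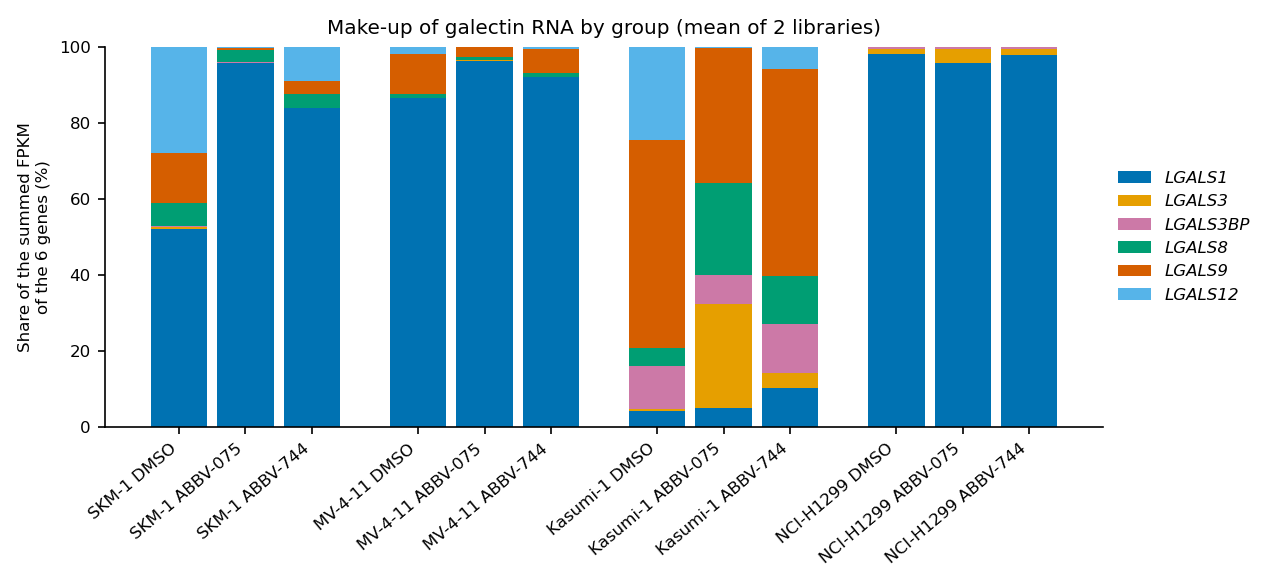
Share of each gene in the summed FPKM of the 6 galectin genes (vertical axis, percent), for the 12 groups (horizontal axis), as means of 2 libraries. LGALS1 fills most of each bar in NCI-H1299, MV-4-11 and treated SKM-1, while Kasumi-1 bars consist mainly of LGALS9 in DMSO and of LGALS9, LGALS3 and LGALS8 after ABBV-075.

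Among DMSO libraries, 12 of the 16 galectin tests between pairs of lines, LGALS12 left aside, were called, 5 higher and 7 lower in the first line of the pair. The share of all tested rows called was 56.7% between SKM-1 and MV-4-11, 55.7% between SKM-1 and Kasumi-1, 63.7% between SKM-1 and NCI-H1299, 55.7% between MV-4-11 and Kasumi-1, 63.3% between MV-4-11 and NCI-H1299, and 62.8% between Kasumi-1 and NCI-H1299. The widest gap was that of LGALS1, which was lower in Kasumi-1 than in NCI-H1299 with a log2 difference of -7.06 ± 0.16 (SE; limma adjusted p 5.12e-15), whereas MV-4-11 and NCI-H1299 did not differ in it beyond their spread (-0.10, 95% interval -0.44 to 0.23), though with quantile normalization they did (-0.51, adjusted p 0.00602). LGALS3 was higher in NCI-H1299 than in Kasumi-1 and MV-4-11, and LGALS3BP was higher in Kasumi-1 than in NCI-H1299 (1.58 ± 0.26, adjusted p 5.57e-05). The DMSO libraries are part of the contrast that chose LGALS12, so its levels there are given with the gene, with no test.

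**Figure D2:**
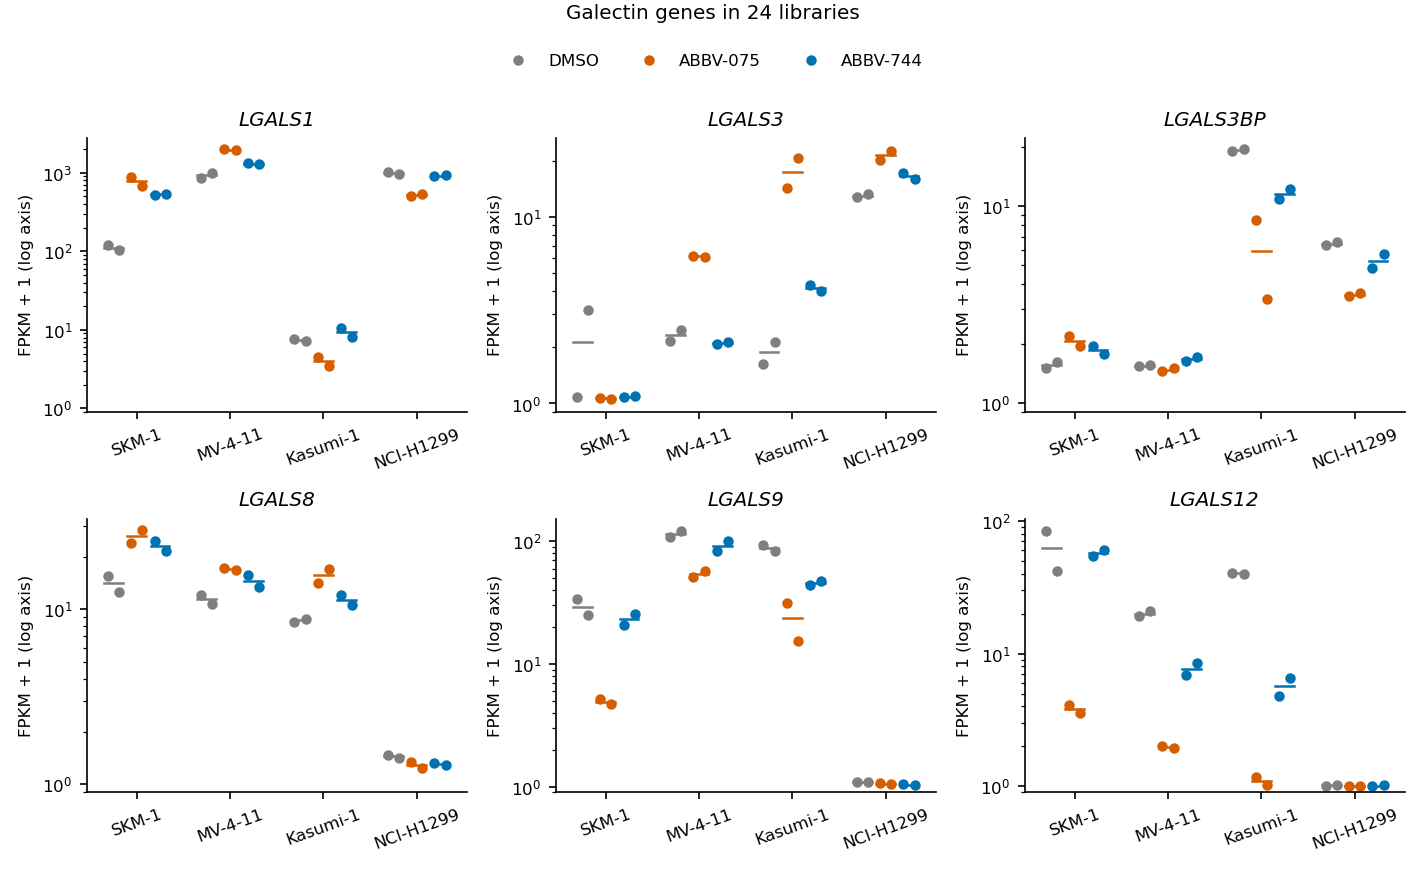
FPKM + 1 of the 6 galectin genes on a log axis, in the 4 lines, with 1 point per library and a bar at the mean of 2 libraries. LGALS12 and LGALS9 lie lower with ABBV-075 than with DMSO in the 3 leukaemia lines, LGALS8 lies higher there, and LGALS1 moves up in SKM-1 and MV-4-11 and down in Kasumi-1 and NCI-H1299.

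With ABBV-075, 14 of the 15 galectin tests outside the LGALS12 falls were called, 7 higher and 7 lower than DMSO. The background was wide: 61.3% of all tested rows were called in SKM-1, 42.3% in MV-4-11, 57.3% in Kasumi-1 and 47.3% in NCI-H1299. With ABBV-744, 6 of the same 15 tests were called, 4 higher and 2 lower, against backgrounds of 27.3%, 11.1%, 23.5% and 5.58% in the same order of lines. Of those 6 calls, 4 were in Kasumi-1 and 2 in SKM-1. That count is fragile: it was 2 without replicate 1 of DMSO-treated Kasumi-1, 3 without replicate 1 of ABBV-744-treated Kasumi-1 and 3 with a pseudocount of 0.1 FPKM.

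**Figure D3:**
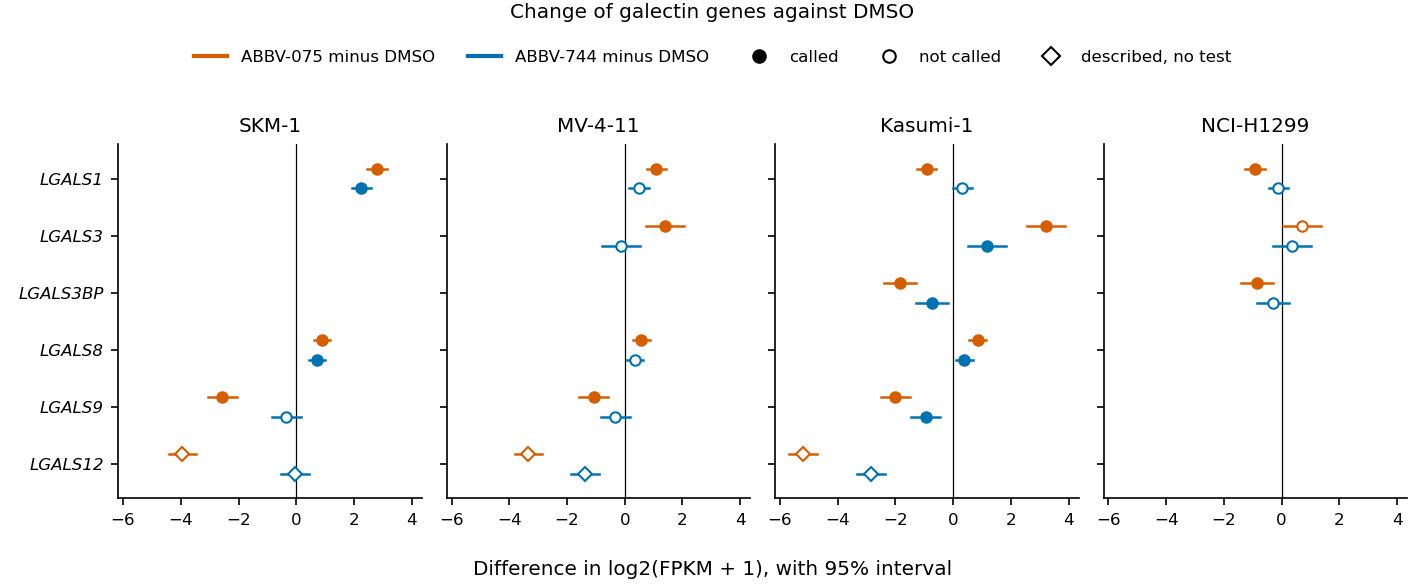
Difference from DMSO in log2(FPKM + 1) (horizontal axis) for each galectin gene in each line, with 95% intervals from limma that are not adjusted for multiple testing. Filled circles were called, open circles were not, and diamonds are LGALS12, described with no test. The LGALS12 intervals are not read as a test, because the gene was chosen by its falls. Lines without a symbol were below the filter. ABBV-075 points lie further from 0 than ABBV-744 points for most genes.

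LGALS1 encodes galectin-1, a secreted dimer known for inducing death of activated T cells and for binding laminin and integrins. In SKM-1 its level was 118 and 102 FPKM with DMSO, 872 and 680.4 with ABBV-075, and 520.5 and 538 with ABBV-744. Both treated groups lay above DMSO, without overlap, by 7.06 times and 4.81 times in the means. Separation from DMSO without overlap was common over all tested rows. With ABBV-075 it was seen in 68.2%, 77.8%, 72.6% and 85.8% of them in SKM-1, MV-4-11, Kasumi-1 and NCI-H1299. With ABBV-744 these shares were 50.6%, 58.01%, 68.2% and 65.6% in the same order of lines. The log2 rise of LGALS1 in SKM-1 was 2.80 ± 0.16 (SE, adjusted p 4.92e-10) with ABBV-075 and 2.26 ± 0.16 (adjusted p 6.32e-08) with ABBV-744. Without replicate 1 or replicate 2 of the SKM-1 DMSO group, the ABBV-075 rise was 2.91 or 2.70 and the ABBV-744 rise 2.37 or 2.16.

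MV-4-11 started from a higher level of LGALS1, 857 and 1001 FPKM with DMSO, and reached 2009 and 1953 with ABBV-075 and 1319.95 and 1301 with ABBV-744. Treated libraries again all lay above the DMSO libraries. The rise with ABBV-075 was 1.10 ± 0.16 (adjusted p 3.80e-05), and that with ABBV-744, 0.50 ± 0.16, missed the threshold (adjusted p 0.0531). It passed in several alternatives, such as without either SKM-1 DMSO library (adjusted p 0.0276 and 0.0277).

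The other lines went the opposite way with ABBV-075. Kasumi-1 had 6.70 and 6.21 FPKM of LGALS1 with DMSO, 3.50 and 2.44 with ABBV-075, and 9.68 and 7.09 with ABBV-744. NCI-H1299 had 1031 and 959.5 with DMSO, 513 and 538 with ABBV-075, and 919 and 925 with ABBV-744. LGALS1 fell with ABBV-075 in each of these lines, with a log2 difference of -0.92 ± 0.16 in both (adjusted p 0.000124 in Kasumi-1 and 0.000183 in NCI-H1299). With ABBV-744 the differences were 0.32 (95% interval -0.02 to 0.65) in Kasumi-1 and -0.11 (-0.44 to 0.23) in NCI-H1299, and neither was called. A test of whether the response differed among the 4 lines could be made for LGALS1 alone and was called for both compounds (adjusted p 1.64e-08 with ABBV-075 and 0.000113 with ABBV-744), where 50.7% and 6.31% of all tested rows were called.

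Across the 12 groups the LGALS1 means ran from 1981 FPKM in ABBV-075-treated MV-4-11 to 2.97 in ABBV-075-treated Kasumi-1. Neighbours in that order whose libraries overlapped were DMSO-treated NCI-H1299 (mean 995.5), DMSO-treated MV-4-11 (929) and ABBV-744-treated NCI-H1299 (922), and also ABBV-744-treated SKM-1 (529) and ABBV-075-treated NCI-H1299 (525). Over the same treatment in SKM-1, the summed leucocyte and myeloid markers went from between 2945 and 3974 FPKM with DMSO to between 147 and 164 with ABBV-075 and between 1373 and 1591 with ABBV-744. Summed mesenchymal markers in SKM-1 were between 23.4 and 43.7 FPKM with DMSO. They were between 121 and 125 with ABBV-075 and between 51.2 and 56.5 with ABBV-744. In MV-4-11 they went from between 290 and 307 to between 373 and 377 and between 353 and 368. Of the 3 listed mesenchymal markers only VIM, which encodes vimentin, passed the filter in SKM-1 and MV-4-11, while COL1A1 and FN1 did not. The VIM differences in MV-4-11, 0.33 with ABBV-075 and 0.27 with ABBV-744, were not called. Where LGALS1 fell with ABBV-075, the mesenchymal sums overlapped DMSO. In NCI-H1299 they were between 1581 and 1609 with DMSO and between 1557 and 1669 with ABBV-075. In Kasumi-1 they were between 0.858 and 1.08 and between 0.946 and 1.4995. The part of these marker changes in the galectin results was not tested, and in bulk RNA fewer cells of a type and less RNA per cell cannot be told apart.

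LGALS3 encodes galectin-3, the chimera-type galectin that forms lattices on glycoproteins and marks damaged lysosomes. In Kasumi-1 it went from 0.63 and 1.13 FPKM with DMSO to 13.3 and 19.6 with ABBV-075 and 3.29 and 3.03 with ABBV-744. All treated libraries lay above DMSO, a separation common over all rows, as given for LGALS1. The ABBV-075 mean was 18.7 times the DMSO mean. The log2 rises were 3.21 ± 0.31 (adjusted p 3.47e-07) and 1.16 ± 0.31 (adjusted p 0.0132). The ABBV-744 call was lost without replicate 1 of the Kasumi-1 DMSO group (adjusted p 0.116) and without either ABBV-744 library (0.0766 and 0.0559).

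In MV-4-11 the LGALS3 values were 1.16 and 1.49 FPKM with DMSO, 5.19 and 5.11 with ABBV-075, and 1.09 and 1.15 with ABBV-744. LGALS3 rose with ABBV-075 (1.41 ± 0.31, adjusted p 0.00175) and with ABBV-744 the difference was -0.13 (95% interval -0.79 to 0.53). NCI-H1299 had 11.8 and 12.2 FPKM with DMSO, 19.1 and 21.6 with ABBV-075 and 16.2 and 14.9 with ABBV-744. The groups did not overlap, though separation from DMSO was common over all rows, as given for LGALS1. The NCI-H1299 difference with ABBV-075, 0.72 ± 0.31, was not called (adjusted p 0.0705). The call depended on the SKM-1 DMSO libraries, which held 0.0892 and 2.16 FPKM of LGALS3 and enter the pooled spread: without replicate 1 or 2 of them the adjusted p was 0.000789 or 0.000784. In the fit of NCI-H1299 alone LGALS3 was called with ABBV-075 (adjusted p 6.78e-05) and with ABBV-744 (0.35, adjusted p 0.0178). The same 2 SKM-1 libraries held 20.1 and 55.1 FPKM of summed carcinoma and epithelial markers and 23.4 and 43.7 FPKM of summed mesenchymal markers, and the other 4 SKM-1 libraries held 0.0552 to 0.092 FPKM of LGALS3. What set the 2.16 FPKM was not tested.

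LGALS8 encodes galectin-8, a tandem-repeat galectin that recruits the autophagy receptor CALCOCO2 to damaged vesicles. It was higher with both compounds than with DMSO in each leukaemia line. SKM-1 had 14.5 and 11.6 FPKM with DMSO, 23.1 and 27.2 with ABBV-075, and 23.7 and 20.4 with ABBV-744. MV-4-11 had 11.1 and 9.68, then 16.2 and 15.8, then 14.6 and 12.5, and Kasumi-1 had 7.49 and 7.81, then 13.2 and 16.0, then 11.1 and 9.61, in the same order of treatments. In each leukaemia line all treated libraries lay above both DMSO libraries, though separation from DMSO was common over all rows, as given for LGALS1.

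LGALS8 rose with ABBV-075 by 0.90 ± 0.13 in SKM-1 (adjusted p 2.70e-05), 0.58 ± 0.13 in MV-4-11 (0.00255) and 0.85 ± 0.13 in Kasumi-1 (5.76e-05). Without replicate 1 or 2 of DMSO-treated SKM-1 the SKM-1 rise was 1.05 or 0.75, still called. With ABBV-744 it rose by 0.72 ± 0.13 in SKM-1 (adjusted p 0.00103) and 0.39 ± 0.13 in Kasumi-1 (0.0459), and the MV-4-11 difference of 0.35 was not called (0.116). In the fit of SKM-1 alone the SKM-1 call with ABBV-744 was lost (adjusted p 0.132), and the Kasumi-1 call was lost under most alternatives, with adjusted p up to 0.274 without replicate 1 of the ABBV-744 group. In NCI-H1299 LGALS8 stayed between 0.248 and 0.473 FPKM. In the RefSeq annotation of GRCh38.p14 the far end of LGALS8 overlaps HEATR1, a ribosome biogenesis gene, and reads of the overlap cannot be told apart where strand was not used in counting, which is not given in the sources used here. HEATR1 fell with ABBV-075 in all 4 lines, with differences of -1.53, -0.33, -1.35 and -0.44 in SKM-1, MV-4-11, Kasumi-1 and NCI-H1299, while LGALS8 rose in 3.

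LGALS9 encodes galectin-9, a tandem-repeat galectin and ligand of TIM-3 (HAVCR2) with an autocrine role in leukaemic stem cells. In SKM-1 it measured 32.7 and 24.1 FPKM with DMSO, 4.19 and 3.68 with ABBV-075, and 19.8 and 24.4 with ABBV-744. In MV-4-11 the values were 108 and 119.6, then 50.2 and 56.7, then 82.8 and 99.4, and in Kasumi-1 92.5 and 83.0, then 30.6 and 14.5, then 43.1 and 46.8. With ABBV-075 all libraries of each leukaemia line lay below DMSO, a separation common over all rows, as given for LGALS1. With ABBV-744 the SKM-1 libraries overlapped DMSO.

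LGALS9 fell with ABBV-075 in each, with log2 differences of -2.56 ± 0.23 in SKM-1 (adjusted p 1.23e-07), -1.08 ± 0.23 in MV-4-11 (0.00143) and -2.001 ± 0.233 in Kasumi-1 (2.48e-06). Without replicate 1 or 2 of DMSO-treated SKM-1 the SKM-1 difference was -2.35 or -2.77. With ABBV-744 only the Kasumi-1 difference of -0.95 ± 0.23 was called (adjusted p 0.00755), and this call was lost without replicate 1 of DMSO-treated Kasumi-1 (0.0636), without replicate 1 of ABBV-744-treated Kasumi-1 (0.0584) and in the fit of Kasumi-1 alone (0.102). In SKM-1 and MV-4-11 the ABBV-744 differences were -0.34 (95% interval -0.83 to 0.16) and -0.32 (-0.82 to 0.17). Reads of LGALS9 may be shared with its near-identical copies LGALS9B and LGALS9C, so its level is uncertain. The copies reached at most 1.33 and 0.992 FPKM in any library. These values do not bound that uncertainty, because how shared reads were counted is not given.

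In a test added after the data were seen, the response to ABBV-075 differed among the 3 leukaemia lines for LGALS1 (adjusted p 5.87e-08) and LGALS9 (0.00611) and not beyond the threshold for LGALS8 (0.288), so 2 of 3 tests were called where 45.7% of all tested rows were. With ABBV-744 it was called for LGALS1 (0.000137) and not for LGALS9 (0.326) or LGALS8 (0.337), 1 of 3 where 6.55% of all tested rows were called.

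LGALS3BP encodes the galectin-3-binding protein, a secreted scavenger-receptor-domain glycoprotein known to be induced by interferons. In Kasumi-1 it measured 18.1 and 18.4 FPKM with DMSO, 7.52 and 2.38 with ABBV-075, and 9.82 and 11.3 with ABBV-744. NCI-H1299 had 5.32 and 5.55, then 2.49 and 2.62, then 3.87 and 4.69. Treated libraries were below DMSO in both lines, without overlap, though such separation was common over all rows, as given for LGALS1. In SKM-1 and MV-4-11 the gene stayed between 0.453 and 1.196 FPKM and was not tested.

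LGALS3BP fell with ABBV-075, with log2 differences of -1.84 ± 0.26 in Kasumi-1 (adjusted p 1.73e-05) and -0.86 ± 0.26 in NCI-H1299 (0.0125). The NCI-H1299 call was lost without replicate 2 of DMSO (adjusted p 0.0608) and without replicate 1 of ABBV-075 (0.0612). With ABBV-744 the difference was -0.74 ± 0.26 in Kasumi-1, just past the threshold (adjusted p 0.0487) and lost under most alternatives (up to 0.261 in the fit of Kasumi-1 alone), but far past it without replicate 1 or 2 of ABBV-075-treated Kasumi-1 (9.3e-05 and 9.2e-05), and -0.29 in NCI-H1299 (95% interval -0.84 to 0.26).

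The ABBV-075 libraries of Kasumi-1 differed from each other in the members. Replicate 1 held more LGALS1, LGALS3BP, LGALS9 and LGALS12 (0.178 against 0.0186 FPKM) than replicate 2, and less LGALS3 and LGALS8. Without replicate 1 the Kasumi-1 differences with ABBV-075 were -2.51 for LGALS3BP and -2.52 for LGALS9, and without replicate 2 they were -1.18 and -1.49, all still called. In the same order the differences were -1.11 and -0.73 for LGALS1, 3.47 and 2.95 for LGALS3 and 0.98 and 0.72 for LGALS8, also still called. Interferon-stimulated genes moved with this difference: 20 listed genes summed to 492.5 FPKM in replicate 1 and 231 in replicate 2, and 20 of 20 were higher in replicate 1, against sums of 166.6 and 168.5 with DMSO. Their part in the LGALS3BP and LGALS9 values was not tested.

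**Figure D4:**
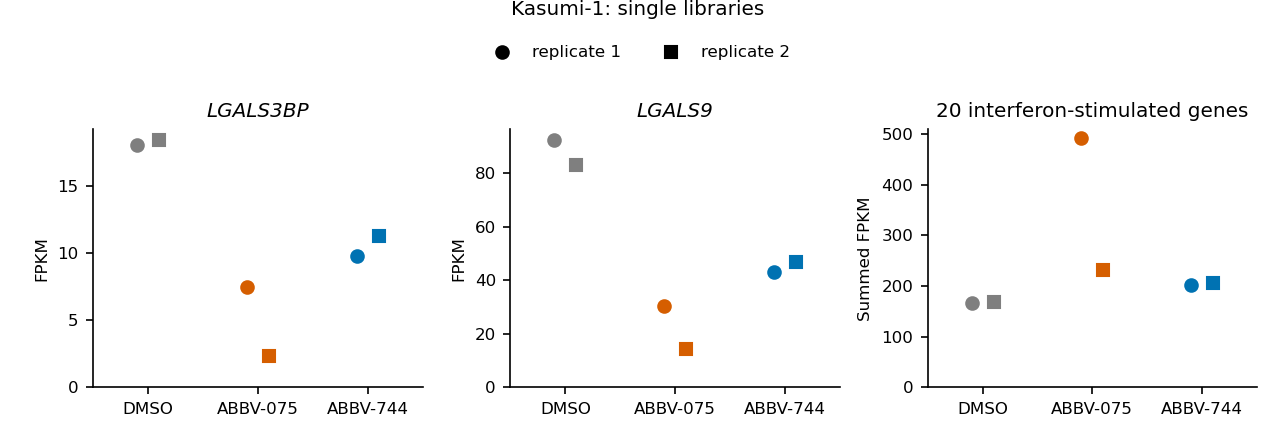
FPKM of LGALS3BP and LGALS9 and summed FPKM of 20 interferon-stimulated genes (vertical axes, from 0) in the 6 Kasumi-1 libraries, with circles for replicate 1 and squares for replicate 2. With ABBV-075, replicate 1 is above replicate 2 in all 3 panels, and both replicates of LGALS3BP and LGALS9 stay below DMSO.

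RefSeq promoter sequences, read as the 250 bases before the start on GRCh38.p14, matched 4 of the 6 genes. They are shown for LGALS3BP and LGALS9, which fell together in Kasumi-1, and for LGALS3, which rose there. The LGALS3BP window is chr17:78979924-78980173 (minus strand), that of LGALS9 chr17:27630938-27631187 (plus strand) and that of LGALS3 chr14:55129002-55129251 (plus strand). Letters in capitals mark matches on either strand to any of 7 motifs: the interferon-stimulated response element core (GAAA, any 2 bases, GAAA), the E-box CACGTG, the ETS-type GAGGAA, the AP-1-type TGANTCA, the C/EBP-type (TTGC, any 2 bases, AA), TATAAA and CCAAT. Sequences run 5′ to 3′.
LGALS3BP: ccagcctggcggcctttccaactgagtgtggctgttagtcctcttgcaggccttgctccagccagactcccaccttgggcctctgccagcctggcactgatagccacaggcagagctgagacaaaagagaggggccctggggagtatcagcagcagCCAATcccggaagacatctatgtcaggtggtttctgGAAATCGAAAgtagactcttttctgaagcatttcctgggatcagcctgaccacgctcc
LGALS9: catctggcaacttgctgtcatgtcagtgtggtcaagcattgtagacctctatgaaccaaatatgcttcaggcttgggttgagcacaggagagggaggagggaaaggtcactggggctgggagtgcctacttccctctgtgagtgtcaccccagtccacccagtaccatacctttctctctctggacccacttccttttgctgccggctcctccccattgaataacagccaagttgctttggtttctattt
LGALS3: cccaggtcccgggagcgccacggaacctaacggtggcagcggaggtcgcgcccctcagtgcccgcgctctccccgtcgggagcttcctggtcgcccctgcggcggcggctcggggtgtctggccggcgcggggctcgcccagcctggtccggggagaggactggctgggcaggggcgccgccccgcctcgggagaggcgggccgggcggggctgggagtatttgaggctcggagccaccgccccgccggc
LGALS3BP was the member among the 4 with the response element core, 58 to 49 bases before the start, where 3.02% of 35116 promoters of the same length held a match, and it also held CCAAT, as did 32.01% of promoters. LGALS9 and LGALS3 held none of the 7 motifs in this window. The LGALS3 window had 78.8% G and C and 32 CpG dinucleotides, that of LGALS9 51.6% and 1, and that of LGALS3BP 56.8% and 4, against medians of 58% and 11 over all promoters. These are descriptions of letters, not of binding.

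LGALS12 encodes galectin-12, known to restrain lipolysis on lipid droplets. Its values chose this group, so they are described without a test. In SKM-1 it measured 82.3 and 40.6 FPKM with DMSO, 3.11 and 2.55 with ABBV-075, and 53.3 and 59.8 with ABBV-744. MV-4-11 had 18.1 and 19.8, then 1.01 and 0.934, then 5.92 and 7.47, and Kasumi-1 had 39.7 and 39.1, then 0.178 and 0.0186, then 3.83 and 5.59. NCI-H1299 had between 0 and 0.0243 FPKM in its 6 libraries.

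With ABBV-075 the DMSO mean was 21.7 times the treated mean in SKM-1 and 19.5 times in MV-4-11. The SKM-1 ratio was 14.3 without replicate 1 of DMSO and 29.03 without replicate 2. In Kasumi-1 the treated libraries were near 0 and the ratio rested on them: it was 400.4 with both, 2116 without replicate 1 and 221.1 without replicate 2. With ABBV-744 it was 2.83 times in MV-4-11 and 8.36 times in Kasumi-1, and in SKM-1 both treated libraries lay between the DMSO libraries. On the log2(FPKM + 1) scale the ABBV-744 differences were -0.04, -1.38 and -2.84 in SKM-1, MV-4-11 and Kasumi-1. The SKM-1 value was 0.47 without replicate 1 of DMSO and -0.54 without replicate 2, so its direction rests on 1 library. The adipocyte markers ADIPOQ, FABP4, PLIN1 and LEP summed to at most 0.195 FPKM in any library.

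Direct comparison of the compounds at these doses showed 11 of 15 galectin tests called, 6 higher and 5 lower with ABBV-744 than with ABBV-075, against 43.6% of all tested rows in SKM-1, 21.6% in MV-4-11, 37.6% in Kasumi-1 and 34.9% in NCI-H1299. These 15 pairs of values were adjusted within each line over all its rows. LGALS9 was higher with ABBV-744 in SKM-1 by 2.22 ± 0.23 (adjusted p 1.49e-06), in Kasumi-1 by 1.05 ± 0.23 (0.00236) and in MV-4-11 by 0.76 ± 0.23 (0.0284). LGALS3 was lower with ABBV-744 in Kasumi-1 (-2.05 ± 0.31, adjusted p 0.000114) and MV-4-11 (-1.54 ± 0.31, 0.0019). LGALS1 was lower in SKM-1 (-0.54) and MV-4-11 (-0.60) and higher in Kasumi-1 (1.24) and NCI-H1299 (0.81). LGALS3BP was higher in Kasumi-1 (1.10 ± 0.26, limma adjusted p 0.00357). That call was lost in the fit of Kasumi-1 alone (0.0774), as was that of LGALS1 in the fit of SKM-1 alone (0.162). In MV-4-11 the calls of LGALS9 and LGALS1 were lost when any of the 4 treated libraries was left out (adjusted p 0.0544 to 0.186 for LGALS9 and 0.0571 to 0.0773 for LGALS1). In SKM-1 that of LGALS1 was lost without replicate 1 of ABBV-075 (0.141) or of ABBV-744 (0.0601).

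For LGALS8 the ABBV-744 minus ABBV-075 difference was -0.18 in SKM-1 (95% interval -0.46 to 0.11) and -0.23 in MV-4-11 (-0.51 to 0.06), neither called, and -0.46 in Kasumi-1 (adjusted p 0.0139), a call lost without replicate 2 of ABBV-075 (0.145) or of ABBV-744 (0.132). The LGALS8 call in Kasumi-1 was also lost in the fit of that line alone (limma adjusted p 0.103). In NCI-H1299 the differences were -0.37 for LGALS3 (-1.03 to 0.30) and 0.57 for LGALS3BP (0.02 to 1.12, adjusted p 0.101), also not called. Both were called in the fit of NCI-H1299 alone (adjusted p 0.00391 and 0.001005). The second was also called without either Kasumi-1 library treated with ABBV-075 (adjusted p 0.000352 and 0.000362), because those libraries enter the pooled spread.

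Of 12 other listed galectin genes, 11 were in the table and 3 passed the filter in any line. CLC, which encodes galectin-10, the protein of Charcot-Leyden crystals in eosinophils and basophils, was above LGALS1 in both DMSO libraries of SKM-1 in FPKM, a level per length: 478 and 119.97 FPKM with DMSO, 44.0 and 42.4 with ABBV-075, and 222 and 209 with ABBV-744. CLC fell with ABBV-075 (-2.45 ± 0.38, adjusted p 3.83e-05), and with ABBV-744 the difference was -0.15, where both libraries lay between the DMSO libraries. Without replicate 1 of DMSO the CLC differences were -1.45 and 0.84, and without replicate 2 they were -3.44 and -1.14, all 4 called, so the direction with ABBV-744 rests on 1 library. In the other 3 lines CLC stayed at or below 0.600 FPKM. LGALSL, a galectin-related gene, fell with ABBV-075 in NCI-H1299 (-0.43) and in SKM-1 (-0.29), the latter call being lost without replicate 1 of DMSO (adjusted p 0.28) and the difference being -0.45 without replicate 2. LGALS9B passed the filter in SKM-1 only through its DMSO libraries (1.08 and 1.33 FPKM), and without either of them it was below the filter. Its lower values with ABBV-075 (0.191 and 0.304) and ABBV-744 (0.218 and 0.162) are therefore described with no test. LGALS7, LGALS7B, LGALS13 and LGALS16 were listed at 0 in all 24 libraries.

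With ABBV-075, 32.03%, 20.3%, 24.7% and 20.7% of all tested rows rose and 29.3%, 22.1%, 32.6% and 26.6% fell in SKM-1, MV-4-11, Kasumi-1 and NCI-H1299, and the counts of the gene lists stand beside these shares. Of 17 listed enzymes that make or mask galectin ligands, 9 rose and 4 fell among 17 tested in SKM-1, 8 rose and 1 fell among 16 in MV-4-11, 6 rose and 4 fell among 16 in Kasumi-1, and 6 rose and 1 fell among 14 in NCI-H1299. The Kasumi-1 counts were 6 and 6 without replicate 1 of ABBV-075 and 5 and 1 without replicate 2. The median log2 difference of the tested genes was 0.35, 0.39, 0.15 and 0.24, against 0.05, -0.01, -0.09 and -0.06 over all tested rows. C1GALT1, which builds the core 1 O-glycan, MAN1A1, which trims N-glycans, and MGAT4A, which adds N-glycan branches, rose in all 4 lines. In Kasumi-1 MAN1A1 went from 0.587 and 0.577 FPKM to 3.85 and 5.56 (1.83). Both DMSO libraries were under 1 FPKM there, so MAN1A1 passed the filter through treated libraries only. That rise is described with no test, though it is among the 6 counted for Kasumi-1. Single libraries decided some of these calls: in SKM-1 that of MAN1A1 was lost without replicate 1 of DMSO (adjusted p 0.251) and that of C1GALT1 without replicate 2 (0.307), and in Kasumi-1 that of MGAT4A without replicate 2 of ABBV-075 (0.262). The MGAT4A rise in SKM-1 was 0.68, and 0.40 without replicate 1 of DMSO, and that in Kasumi-1 was 0.48, and 0.73 without replicate 1 of ABBV-075.

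ST6GAL1, the masking sialyltransferase, went the other way in the leukaemia lines. Its level fell from 25.4 and 14.6 FPKM to 3.13 and 3.01 in SKM-1 (-2.32 ± 0.16, adjusted p 6.42e-09), from 21.03 and 22.6 to 9.99 and 10.1 in MV-4-11 (-1.04) and from 25.2 and 25.01 to 12.8 and 11.5 in Kasumi-1 (-0.99). Without replicate 1 or 2 of DMSO the SKM-1 difference of ST6GAL1 was -1.94 or -2.70. GCNT1, which starts core 2 branches on O-glycans, fell in SKM-1 (-1.31) and Kasumi-1 (-0.46, a call lost without replicate 2 of ABBV-075, adjusted p 0.0673). With ABBV-744, MAN1A1 rose in Kasumi-1 (0.55), where its DMSO libraries were under 1 FPKM. With that compound GCNT1 fell in SKM-1 (-0.82), Kasumi-1 (-0.54) and NCI-H1299 (-0.48), ST6GAL1 fell in Kasumi-1 (-0.49) and MGAT3 fell in SKM-1 (-0.58). Of all tested rows, 27.3%, 11.1%, 23.5% and 5.58% were called with ABBV-744 in SKM-1, MV-4-11, Kasumi-1 and NCI-H1299. The 6 changes just given were the only calls among the listed enzymes with ABBV-744, and MV-4-11 had none. Without replicate 1 of DMSO, 4 of these enzymes rose and 6 fell in SKM-1 with ABBV-744.

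Among 22 glycoproteins and partners that galectins bind, 6 rose and 8 fell with ABBV-075 of 19 tested in SKM-1, 8 and 4 of 17 in MV-4-11, 6 and 10 of 17 in Kasumi-1, and 6 and 4 of 17 in NCI-H1299. ITGA4, the α4 integrin, fell in all 4 lines, most in SKM-1, from 38.7 and 42.7 FPKM to 2.52 and 3.51 (-3.39 ± 0.20, adjusted p 7.14e-10). CD44, a hyaluronan receptor, fell in the 3 leukaemia lines with ABBV-075 (-0.95, -0.48 and -1.03) and with ABBV-744 (-0.60, -0.45 and -0.78; the first was -0.39 without replicate 1 of the SKM-1 DMSO group, still called). PDCD6IP, which encodes the ESCRT partner ALIX, rose with ABBV-075 in all 4 lines (0.75, 0.54, 0.98 and 1.22). HAVCR2, the TIM-3 receptor of galectin-9, passed the filter in Kasumi-1 only, at 2.62 and 1.94 FPKM with DMSO, and fell with ABBV-075 (-1.27) and ABBV-744 (-0.81). VSIR, another galectin-9 partner, listed as C10orf54, fell in SKM-1 with ABBV-075 (-1.08) and rose there with ABBV-744 (1.16).

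Interferon-stimulated genes were followed because LGALS3BP and LGALS9 are known to respond to interferons. With ABBV-075, 7 rose and 1 fell of 15 tested in SKM-1, 5 and 1 of 13 in MV-4-11, 9 and 2 of 16 in Kasumi-1, and 4 and 4 of 14 in NCI-H1299, with medians of 0.33, 0.14, 0.79 and -0.18. Of the listed genes tested in Kasumi-1, 8 rose and 5 fell without replicate 1 of ABBV-075, and 14 rose and 0 fell without replicate 2. IRF7, an interferon regulatory factor, rose in all 4 lines (1.73, 1.45, 2.70 and 1.18), as did STAT2. In Kasumi-1 IRF7 went from 5.38 and 4.31 FPKM to 64.1 and 20.9, again with the higher value in replicate 1. In that line LGALS3BP and LGALS9 fell, while 9 of the 16 tested genes of this list rose. With ABBV-744, 1, 2, 6 and 0 genes rose and 0, 1, 0 and 1 fell in the same order of lines, where 14.8%, 4.51%, 8.61% and 1.47% of all tested rows rose and 12.5%, 6.64%, 14.9% and 4.11% fell. Without either SKM-1 DMSO library 2 rose in SKM-1.

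**Figure D5:**
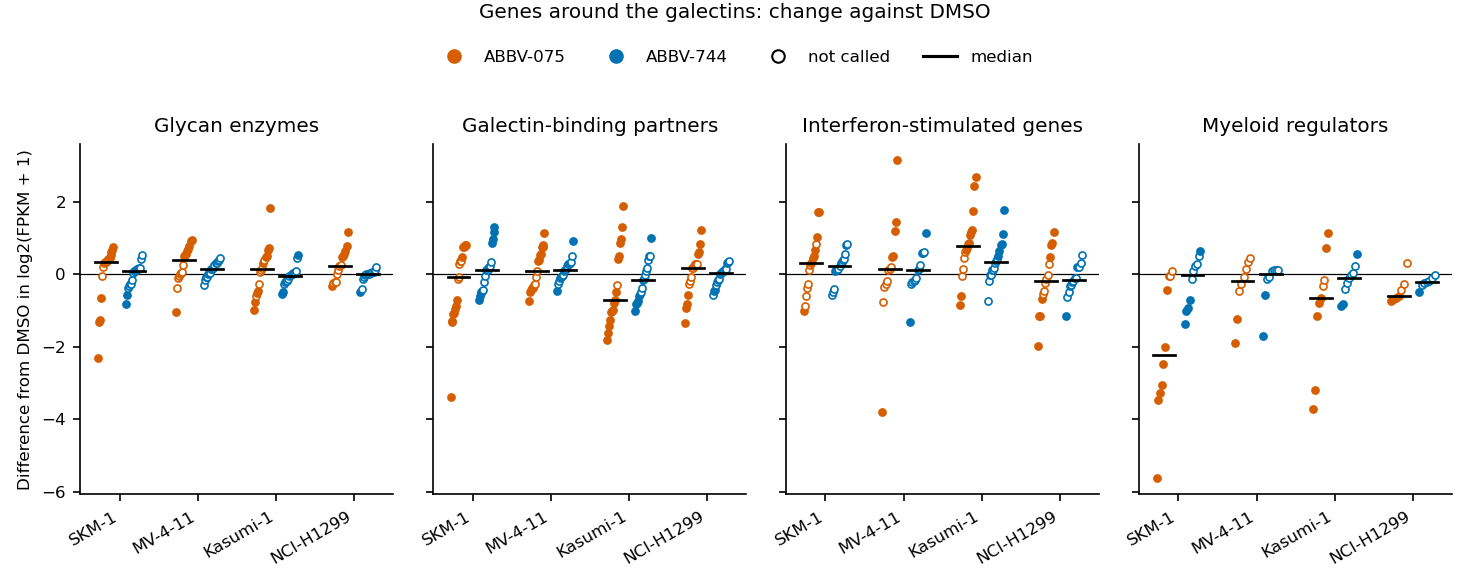
Difference from DMSO in log2(FPKM + 1) (vertical axis) of each tested gene of 4 lists, by line, with filled points for called genes, open points for genes not called and a black bar at the list median. Medians of the glycan enzymes lie above 0 with ABBV-075 in all 4 lines, and those of the myeloid regulators lie below 0.

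Genes next to the members moved both with and against them. Beside LGALS1, SH3BP1 rose in SKM-1 with ABBV-075 (1.13, and 0.72 without replicate 2 of DMSO), as LGALS1 did, and fell in Kasumi-1 (-1.61) and NCI-H1299 (-1.03), as LGALS1 did. In MV-4-11, where LGALS1 rose, the SH3BP1 libraries overlapped, at 13.6 and 17.6 FPKM with DMSO and 16.9 and 17.8 with ABBV-075. On the same side, PDXP fell in SKM-1 with ABBV-075 from 11.6 and 9.01 FPKM to 0.45 and 1.02 (-2.72), where LGALS1 rose, and NOL12, on the other side, fell in all 4 lines (-0.95, -0.72, -1.32 and -1.38). LYRM9, near LGALS9, rose with ABBV-075 in all 4 lines (1.74, 1.41, 2.05 and 1.60) where LGALS9 fell in 3. Of the nearest 2 genes on each side of LGALS12, HRASLS5, HRASLS2 and SLC22A9 were below the filter in each line, the highest group mean being 0.355 FPKM for HRASLS5. RARRES3 was tested in MV-4-11 and Kasumi-1. In Kasumi-1 RARRES3 measured 0.772 and 1.92 FPKM with DMSO, 0.457 and 0.0829 with ABBV-075, and 1.10 and 1.10 with ABBV-744. It fell there with ABBV-075 (-0.86 ± 0.18, adjusted p 0.000647), where LGALS12 was lower too, and the ABBV-744 difference of -0.12 and the MV-4-11 differences of -0.34 and 0.07 were not called.

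Rows whose treatment pattern within lines was most like that of each member were found by Pearson's r over group means of log2(FPKM + 1) after subtracting each line's mean, among up to 12785 rows with a known symbol. Over 12 groups these were SUN2 (0.971), GPN2 (0.961) and SNF8 (0.959) for LGALS1, JAK3 (0.976) for LGALS3, MUL1 (0.977) for LGALS3BP, PLGRKT (0.984) for LGALS8, and SOWAHD (0.988), CTSS (0.988) and NFAM1 (0.986) for LGALS9. For LGALS12, over the 9 leukaemia groups, they were ME3 (0.996), NDUFA9 (0.996) and AHNAK2 (0.994). The points share libraries, so r is a description, with no p.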

How the data were processed

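RNA of 4 cell lines under 3 treatments was measured in 24 libraries. The authors deposited 1 table of FPKM values, with 30373 rows. DESeq2 is named in the submitters' notes on how the authors processed the data, with neither role nor version. The aligner, quantifier, genome build and strand setting are not given in the sources used. Tiny values (0.215% lie above 0 and below 1e-04) show estimated abundances, so whole reads could not be recovered and depth is unknown. Samples were grouped by the labelled line and treatment; replicate numbers follow accession order and pair nothing. Values were tested as log2(FPKM + 1) with limma 3.58.1 in R 4.3.3, with 12 group means, a variance trend, robust moderation and 12 residual degrees of freedom, and Benjamini-Hochberg adjustment over the rows that reached 1 FPKM in 2 or more libraries of every line compared. Whether the response differed among lines was tested with an F test over the lines. The code was tested on simulated data.

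The members and gene lists were chosen with earlier results of these data known. The text names the members, HEXIM1, genes of 6 lists (other galectins, glycan enzymes, galectin-binding partners, lipid droplet genes, interferon-stimulated genes, myeloid regulators; in each comparison at most 4 called and 2 not called), 2 neighbours on each side, and up to 3 rows most alike. The alternatives were other pseudocounts, filters, scalings, moderation and fits, and leaving out each library; for listed genes only libraries of the 2 groups whose replicates stood furthest apart were left out. The planned count between DMSO lines included LGALS12; the report counts it without that gene, a choice made after the data were seen. Promoters and neighbours come from RefSeq on GRCh38.p14; LGALS1 and LGALS12 promoters and all protein sequences were not used here. Figures were drawn with Python 3.11.15 and matplotlib 3.10.9.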

Additional observations from a re-analysis of the deposited data

Results flagged for a closer look

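Responses that differed between lines were flagged for 3 genes. Over all tested rows, a difference in response to ABBV-075 was called in 50.7% over 4 lines and 45.7% over the leukaemia lines (limma F test). For ABBV-744 these shares were 6.31% and 6.55%. LGALS1 rose with ABBV-075 in SKM-1 and MV-4-11 and fell in Kasumi-1 and NCI-H1299, and the F test of the difference gave adjusted p-values of 1.64e-08 over 4 lines and 5.87e-08 over the leukaemia lines (limma). For ABBV-744 the same tests of LGALS1 gave 0.000113 and 0.000137. LGALS9 fell with ABBV-075 in each leukaemia line by unequal amounts (adjusted p 0.00611). LGALS3 with ABBV-744 lay below DMSO in both MV-4-11 libraries (0.847 times the DMSO mean) and above it in both libraries of Kasumi-1 (3.6 times) and NCI-H1299 (1.3 times); that difference was not tested, because LGALS3 was below the filter in SKM-1. Groups of 2 libraries are too small to look for a single library that stands apart.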

How the results depend on the processing

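Over 73 values of the members and 32 alternatives, 24 of which left out 1 library, 2336 values were recomputed. Of these, 2215 kept their direction and their side of the threshold or, where LGALS12 was only described, moved by less than the SE of the main fit. A further 75 lost a call, 32 gained one, 12 moved further and 2 changed sign. The calls gained include some of LGALS12 between DMSO lines, which are not read here. The sign changes were LGALS12 in SKM-1 with ABBV-744 (0.465 without replicate 1 and -0.536 without replicate 2 of the DMSO group) and LGALS1 between MV-4-11 and NCI-H1299 in DMSO (0.00957 without replicate 1 and -0.215 without replicate 2 of MV-4-11), both near 0 at first; the cause was not tested. The number of called galectin tests was 14 for ABBV-075 against DMSO (13 to 15 when a library was left out), 6 for ABBV-744 against DMSO (2 to 7, and 3 with a pseudocount of 0.1 FPKM), 11 for ABBV-744 against ABBV-075 (9 to 12) and 14 of 19 between DMSO lines (13 to 16), a count that here includes LGALS12. Counts between DMSO lines that include LGALS12 are not read as results, because the DMSO libraries are part of the contrast that chose it. Without LGALS12, 12 of 16 tests between DMSO lines were called in the main fit. With no filter on low values more genes entered, and 28 of 36 tests between DMSO lines were called, again with LGALS12 counted. All rows called under that setting were 10272 of 22928 (SKM-1 and MV-4-11), 9896 of 22566 (SKM-1 and Kasumi-1) and 12028 of 23208 (SKM-1 and NCI-H1299). They were 9668 of 22549 (MV-4-11 and Kasumi-1), 12184 of 23257 (MV-4-11 and NCI-H1299) and 11539 of 22823 (Kasumi-1 and NCI-H1299). With no filter, the response among the 4 lines was called in 5 of 5 tests for ABBV-075 and 2 of 5 for ABBV-744. Among the leukaemia lines it was called in 4 of 5 and 2 of 5. For these response tests with no filter, the share of all rows called was not recorded. Those over the 4 lines take in genes near 0, such as LGALS9 and LGALS8 in NCI-H1299 (at most 0.104 and 0.473 FPKM). The counts of response tests with no filter are therefore not read as results. Leaving out a library kept the counts of the responses among the 4 lines at 1 and 1, and among the leukaemia lines at 2 and 1. In a fit that left a group with 1 library, that library was assumed to vary like the other groups. The fit of the compared lines alone is the full fit for the test over 4 lines and gave no further value. Scaling each library to the same sum moved the median of all rows to -0.143 for ABBV-744 against DMSO in Kasumi-1, and to between -0.303 and 0.243 between DMSO lines. No paired analysis was possible because the labels carry no replicate numbers that link libraries across groups.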

Other observations

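Lipid droplet genes, listed because galectin-12 sits on these organelles, were called in both directions with ABBV-075, as were all tested rows (32.03%, 20.3%, 24.7% and 20.7% rose and 29.3%, 22.1%, 32.6% and 26.6% fell in SKM-1, MV-4-11, Kasumi-1 and NCI-H1299). Of 10 tested in each line, 2 rose and 3 fell in SKM-1, 5 and 2 in MV-4-11, 3 and 3 in Kasumi-1, and 3 and 3 in NCI-H1299, with medians of 0.14, 0.17, 0.08 and -0.07. Without replicate 1 of the SKM-1 DMSO group, 4 rose and 2 fell in SKM-1. PNPLA2, the main triglyceride lipase, rose in all 4 lines (1.14, 0.79, 1.01 and 0.98 in SKM-1, MV-4-11, Kasumi-1 and NCI-H1299), and LIPE, the hormone-sensitive lipase, fell in all 4 (-0.57, -0.50, -0.49 and -1.16). The PNPLA2 call in Kasumi-1 was lost without replicate 1 of ABBV-075 (limma adjusted p 0.068), and that of LIPE was lost in Kasumi-1 without replicate 2 of ABBV-075 (0.17) and in SKM-1 without replicate 1 of DMSO (0.168). With ABBV-744, 0, 1, 1 and 0 of these genes rose and 1, 0, 1 and 0 fell in the same order of lines. Of all tested rows, 14.8%, 4.51%, 8.61% and 1.47% rose and 12.5%, 6.64%, 14.9% and 4.11% fell with ABBV-744. The SKM-1 counts changed without replicate 1 of DMSO. PNPLA2 rose in Kasumi-1 (0.89) and VPS13C in MV-4-11 (0.52).

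Among myeloid lineage regulators with ABBV-075, read against the same shares of all tested rows, 0 rose and 7 fell of 10 tested in SKM-1, 0 and 2 of 8 in MV-4-11, 2 and 5 of 9 in Kasumi-1, and 0 and 4 of 7 in NCI-H1299. SPI1, which encodes PU.1, fell from 149 and 119 FPKM to 14.6 and 11.4 in SKM-1 (-3.26 ± 0.24, limma adjusted p 1.04e-08) and from 51.9 and 44.9 to 4.21 and 1.70 in Kasumi-1 (-3.71 ± 0.24, 3.94e-09), while its MV-4-11 difference of -0.46 was not called. Without replicate 1 or 2 of the SKM-1 DMSO group the SPI1 difference in SKM-1 was -3.10 or -3.43, and without replicate 1 or 2 of the Kasumi-1 ABBV-075 group that in Kasumi-1 was -4.19 or -3.24. CEBPE, a granulocyte regulator, fell in SKM-1 (-3.47) and Kasumi-1 (-3.20), and IRF8 fell in all 3 leukaemia lines (-2.47, -1.23 and -1.16). With ABBV-744, SPI1 measured 128 and 158 FPKM in SKM-1, overlapping DMSO, and 23.7 and 27.9 in Kasumi-1, where it fell by 0.88 (-0.88). The number called with ABBV-744 was 1 up and 4 down in SKM-1, 0 and 2 in MV-4-11, 1 and 2 in Kasumi-1, and 0 and 1 in NCI-H1299. Of all tested rows, 14.8%, 4.51%, 8.61% and 1.47% rose and 12.5%, 6.64%, 14.9% and 4.11% fell with ABBV-744 in the same order of lines. The SKM-1 counts changed without either DMSO library.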
